A study of Mus musculus with 6 samples.

Results

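The genes described here are 5 members of the CCN family (Ccn1 to Ccn5), the YAP-responsive gene Ankrd1, and the genes of the coactivator YAP1 (Yap1) and of its DNA-binding partner TEAD1 (Tead1). They were chosen by name, with KO and WT values of these arrays already known, and were found on the array through the RefSeq accession of each probe, with the older names Cyr61, Ctgf, Nov, Wisp1 and Wisp2 read as Ccn1 to Ccn5. All 8 genes were found, each with 1 probe, among 10563 named genes tested and 19801 gene probes on the array. Since this choice was made knowing the difference between KO and WT, that difference is given for these 8 genes as a description, with its standard error and no p-value. RNA was measured in mouse embryo fibroblasts lacking p38α (p38α-/-, KO, 3 arrays) and in wild-type fibroblasts (WT, 3 arrays), both of a mixed 129/svev and C57Bl/6 background. Cells of both groups had become immortal spontaneously in culture and carried stably transduced H-Ras G12V, an oncogenic form of the GTPase, so no group lacked the oncogene. Cultures were grown for 72 h and collected at 70% to 90% confluence. The labels do not say where each culture lay in that range, nor whether the 3 cultures of a genotype came from separately derived lines, so the spread between them may be technical in part.

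CCN proteins are secreted, cysteine-rich proteins of the matrix that bind integrins, proteoglycans and growth factors and change how cells adhere, migrate and respond to those factors. Ccn1 and Ccn2 are immediate early genes of fibroblasts, induced by serum, TGF-beta, stretch and actin tension, whereas Ccn3 is known in several cell types for effects on growth opposite to theirs. YAP1 and its relative TAZ are coactivators without DNA-binding domains of their own. They act in the nucleus through TEAD factors, are held in the cytoplasm when the Hippo kinases phosphorylate them, and respond to cell density and tension. Ccn1, Ccn2 and Ankrd1 are the genes most often used to read their activity. These arrays measured RNA only, and neither YAP1 protein nor its place in the cell was measured. In RNA from whole cultures, fewer cells with a transcript and less of it per cell cannot be told apart.

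KO replicate 3 had the fewest probes above background (8677, against up to 10232 on the others) and a median local background of 61 intensity units, where the other arrays had 49 to 53. Mapk14, the gene of p38α, was at a normalized log2 signal of 6.07 ± 0.12 in KO and 7.01 ± 0.06 in WT (SD, n = 3), and was above background on 1 of 3 KO arrays and on all 3 WT arrays. The sources used here do not say whether its probe lies in the deleted part. Hras, whose probe may also read the transgene, was at 10.58 ± 0.24 in KO and 10.27 ± 0.14 in WT (limma adjusted p = 0.14). Of 6 measured fibroblast markers 4 were above background on every array (Vim, Sparc, Col1a2 and Pdgfrb), while Thy1 and Lum were near background on every array. The summed background-subtracted intensity of the fibroblast list was 23923 to 31180 in KO and 14060 to 16630 in WT, most of it Vim and Sparc. Such sums, here and below, were not normalized between arrays. The constant by which the authors divided the intensities of each array was 19.3 to 22.5 in KO and 16.5 to 18.1 in WT. After normalization Vim (0.83, limma adjusted p = 8.8e-04) and Sparc (0.81, 9.3e-05) were higher in KO and Pdgfrb (-0.56, 0.0012) was lower. All 5 endothelial and all 3 blood cell markers measured were near background on every array. Of 6 epithelial markers, Krt18 and Krt19 were above background on all KO arrays, and Krt19 also on 1 WT array. The summed intensity of that list was 2280 to 3351 in KO against 34.0 to 48.3 in WT. Most of the KO sum was Krt19 (2173 to 3195). Epcam, Cdh1, Krt8 and Cldn4 were near background on every array. Whether the differences in fibroblast and epithelial markers have a part in those below was not tested.

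KO and WT differed in both directions among these genes. In KO, the RNA of Ccn1, Ccn2 and Ankrd1 was lower and that of Ccn3 higher, Ccn5 and Tead1, both near the limit of detection, were higher, and Ccn4 and Yap1 overlapped between the groups. None of the 48 member spots was saturated or left out for a fault, and 41 of them were above background. Of the 8 genes, 3 were past an adjusted p of 0.05 in limma in the higher direction, beside 13.1% of all named genes, and 3 in the lower direction, beside 13.0%. Values of KO and WT did not overlap for 3 genes higher in KO, beside 19.6% of all named genes, and for 3 lower in KO, beside 19.9%. These counts follow from the choice of the genes, and nothing is read from them. Of all calls among named genes 50.1% were higher in KO, and 68.1% were when arrays were scaled by their medians and not by quantiles.

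**Figure D1:**
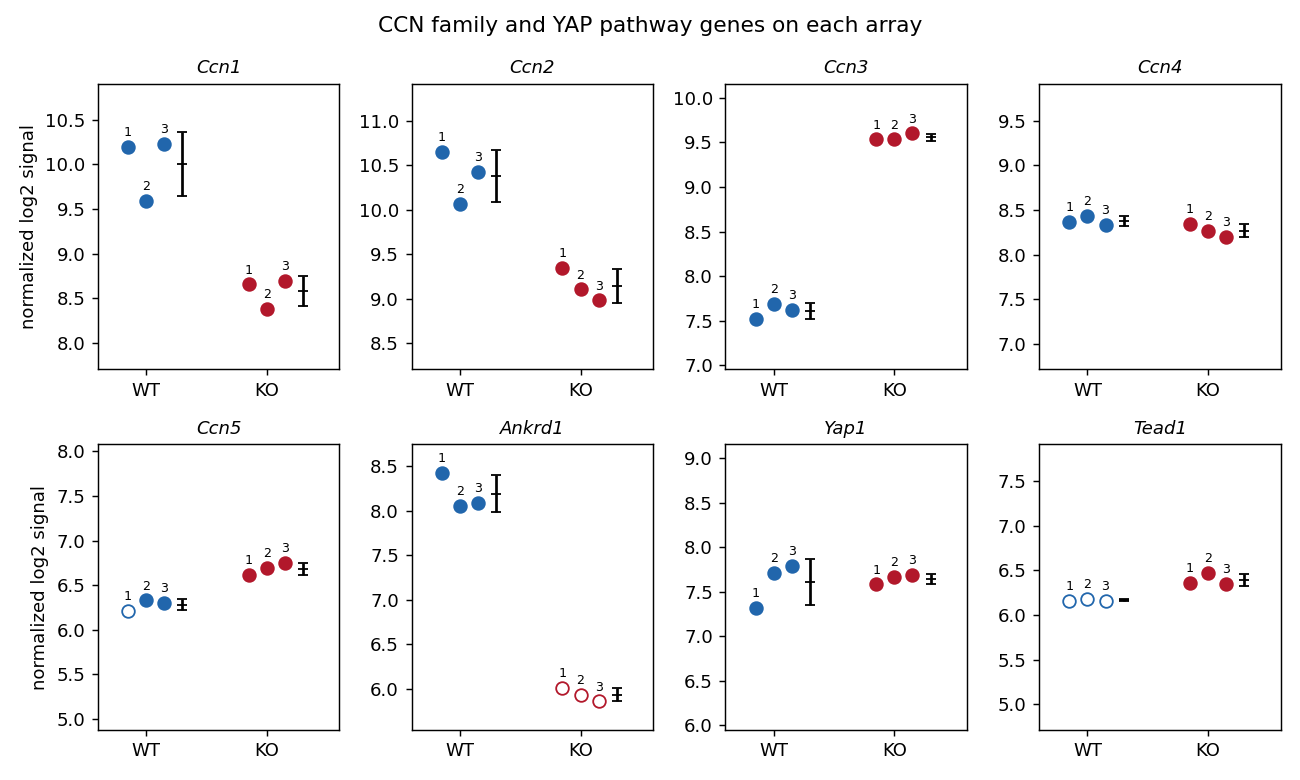
Normalized log2 signal (y axis, each panel spanning the same range of log2 units) of the 8 genes on the 3 WT arrays (blue) and the 3 KO arrays (red), with replicate numbers, open circles for spots near background, and a black bar for the mean with 1 SD (n = 3). Ccn1, Ccn2 and Ankrd1 lie lower in KO, Ccn3 lies higher, and Ccn4 and Yap1 overlap.

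Ccn1 encodes CYR61, a ligand of integrins that promotes adhesion and angiogenesis. Its normalized log2 signals were 10.20, 9.59 and 10.23 in WT replicates 1, 2 and 3, and 8.65, 8.38 and 8.69 in KO replicates 1, 2 and 3. Every KO array lay below every WT array, with 0.90 log2 units between the nearest arrays, and WT replicate 2 was the lowest of its group. The group means were 8.57 ± 0.17 in KO and 10.01 ± 0.36 in WT (SD, n = 3), so KO minus WT was -1.43 (SE 0.17), or 2.70-fold lower in KO. Ccn2 encodes connective tissue growth factor, a mediator of fibrosis that acts together with TGF-beta. It was at 10.65, 10.07 and 10.43 in WT and at 9.35, 9.11 and 8.98 in KO, in replicate order. Again the groups did not overlap, with 0.72 log2 units between the nearest arrays, and WT replicate 2 was again the lowest WT array. The means were 9.15 ± 0.19 in KO and 10.38 ± 0.29 in WT, a difference of -1.23 (SE 0.15), or 2.35-fold lower.

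Ankrd1 encodes an ankyrin repeat protein of the nucleus and the muscle sarcomere, best known as a stress-induced gene of heart and skeletal muscle. Its background-subtracted intensities were 258, 200.1 and 185 in WT replicates 1, 2 and 3, all above background. In KO replicates 1, 2 and 3 they were 10.8, 6.53 and 3.63, all near background. On the normalized log2 scale Ankrd1 was at 8.19 ± 0.21 in WT and 5.94 ± 0.08 in KO, a difference of -2.25 (SE 0.10). Since no KO array measured the transcript, its difference is a bound, at least 4.10-fold lower in KO, with the KO level set at the higher of its own signal and the dimmest signal above background on each array. Ankrd1 is also a muscle gene, and of 7 muscle markers measured 5 were near background on every array, while Actc1 and Tnnt2 were above it on all. The summed intensity of all 7 muscle markers was 128 to 137 in KO and 147 to 172 in WT. Tnnt2, a troponin of heart muscle, was lower in KO (6.39 ± 0.05 against 7.04 ± 0.11, SD, n = 3, limma adjusted p = 4.6e-04). Actc1 did not pass (6.97 ± 0.12 in KO against 6.93 ± 0.03 in WT, limma adjusted p = 0.81). The part of muscle cells in the difference of Ankrd1 was not tested. Ranked by difference among 10563 named genes, Ccn1 was number 69 from the lowest and Ccn2 number 104, while Ankrd1, known only as a bound, has no fixed rank.

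Of the 8 genes, Ccn1, Ankrd1 and Yap1 (3 of 8) had an entry in the promoter table used here (RefSeq sequences, GRCm38.p6), and these are shown. Ccn1 and Ankrd1 are known targets of YAP1 and TEAD factors and were lower in KO, while Yap1 RNA overlapped between the groups. Each line gives the 250 bases before the annotated start, 5′ to 3′ on the strand of the gene, which is the minus strand for all 3. Capitals mark the core TEAD motif GGAATG on either strand. The windows are chr3:145649986-145650235 for Ccn1, chr19:36119845-36120094 for Ankrd1 and chr9:8004597-8004846 for Yap1.
Ccn1: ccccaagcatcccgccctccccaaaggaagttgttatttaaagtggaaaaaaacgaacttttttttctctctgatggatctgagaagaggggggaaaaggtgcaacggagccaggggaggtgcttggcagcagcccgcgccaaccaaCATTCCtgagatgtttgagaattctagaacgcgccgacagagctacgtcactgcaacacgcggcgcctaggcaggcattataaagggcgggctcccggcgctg
Ankrd1: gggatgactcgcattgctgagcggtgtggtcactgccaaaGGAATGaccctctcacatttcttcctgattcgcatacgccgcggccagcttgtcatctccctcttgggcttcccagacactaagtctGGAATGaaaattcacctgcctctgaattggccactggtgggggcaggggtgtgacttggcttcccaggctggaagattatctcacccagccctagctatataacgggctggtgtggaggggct
Yap1: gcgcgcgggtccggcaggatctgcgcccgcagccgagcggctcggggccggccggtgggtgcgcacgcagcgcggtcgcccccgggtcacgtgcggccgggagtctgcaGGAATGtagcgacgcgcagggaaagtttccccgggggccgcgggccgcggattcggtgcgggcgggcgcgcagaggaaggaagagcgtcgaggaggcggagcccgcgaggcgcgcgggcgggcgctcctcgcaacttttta

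Ccn1 held 1 match, read on the opposite strand, from base -103 to -98 before the start. Ankrd1 held 2, from -210 to -205 and from -123 to -118, and Yap1 held 1 from -141 to -136. Of 32851 promoters in the same tables, 12.6% held the motif in a window of this length. The AP-1 motif TGANTCA, which reads the same on both strands, was in none of the 3 windows and in 6.75% of all promoters, and the CArG box of serum response factor was in none of the 3 and in 1.47% of all. A match describes letters and is not a binding site, and a missing match says only that the letters are not in this window.

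Ccn3, formerly Nov, encodes a CCN protein that slows growth in many cell types and binds integrins and NOTCH1. Its signals were 9.53, 9.53 and 9.60 in KO replicates 1, 2 and 3, against 7.52, 7.69 and 7.62 in WT. All KO arrays lay above all WT arrays, and the nearest arrays were 1.85 log2 units apart, a gap that compares with SDs of 0.04 in KO and 0.08 in WT. The difference was 1.95 (SE 0.06), or 3.85-fold higher in KO, number 89 from the highest among named genes. Ccn5, formerly Wisp2, encodes the family member that lacks the C-terminal domain of the others. Its background-subtracted intensities were 51.5, 55.9 and 52.8 in KO and 17.7, 24.6 and 21.3 in WT, in replicate order, with WT replicate 1 near background. The groups did not overlap on the log2 scale (6.68 ± 0.07 in KO, 6.28 ± 0.06 in WT, SD, n = 3), and the difference was 0.40 (SE 0.06), or 1.32-fold. That size depends on the offset added to dim spots, and was 0.93 with offset 0 and 1.07 with the authors' normalized values. Ccn4, formerly Wisp1 and known as a target of Wnt signalling, was at 8.34, 8.27 and 8.20 in KO and at 8.37, 8.43 and 8.33 in WT. KO replicate 1 lay above WT replicate 3, so the groups overlapped, and the difference was -0.11 (SE 0.06). Ccn3 and Ccn4 both lie on chromosome 15, Ccn1 on 3, Ccn2 on 10 and Ccn5 on 2.

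**Figure D2:**
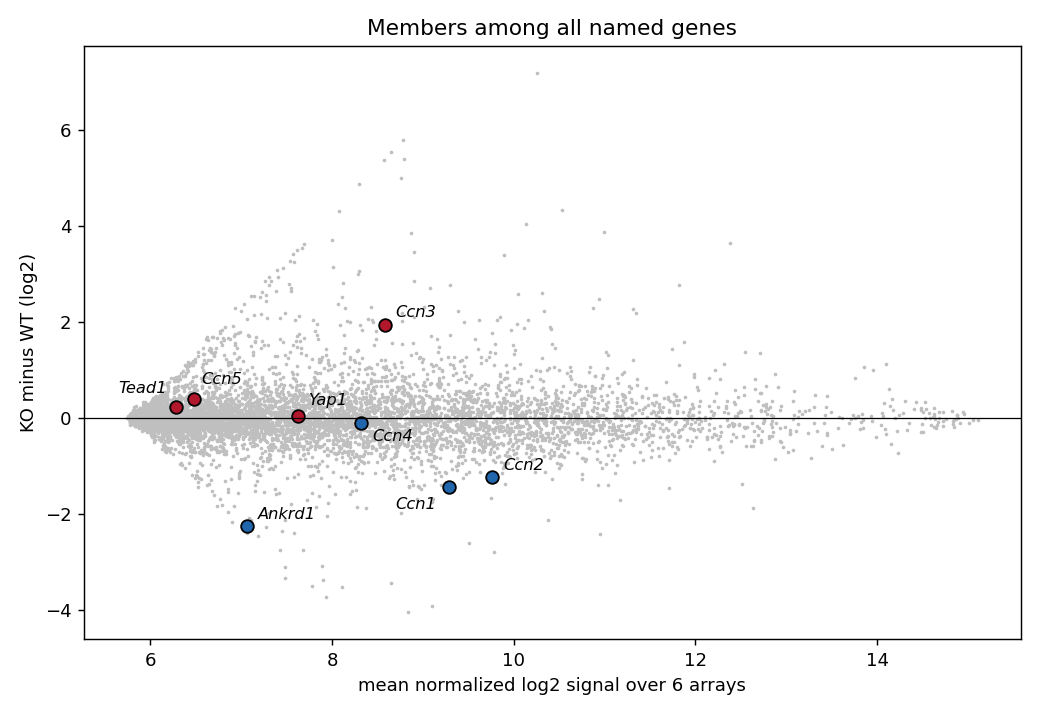
KO minus WT (log2, y axis) against the mean normalized log2 signal over 6 arrays (x axis) for 10563 named genes (grey), with the 8 members marked red where the difference is above 0 and blue where it is below. Ccn3 stands at 1.95, Ankrd1 at -2.25, Ccn1 at -1.43 and Ccn2 at -1.23, while Yap1 and Ccn4 lie close to 0.

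Yap1 RNA did not separate the groups. Its signals were 7.58, 7.67 and 7.69 in KO and 7.31, 7.72 and 7.79 in WT, in replicate order. WT replicate 1 was the lowest of all 6 arrays, and the other WT arrays were the highest. The difference was 0.04 (SE 0.12), so the value is smaller than its error, and without WT replicate 1 it was -0.11. Tead1 was dim, at background-subtracted intensities of 32.5, 38.0 and 26.4 in KO and 15.5, 16.9 and 14.7 in WT. All KO arrays were above background and all WT arrays near it, and Tead1 was at least 1.14-fold higher in KO by the same bound as for Ankrd1. Its log2 signals were 6.39 ± 0.07 in KO and 6.17 ± 0.01 in WT (SD, n = 3), with KO minus WT at 0.23 (SE 0.06). The difference of Tead1 is small and rests on spots near the limit of detection.

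The members also differed in how much they varied between cultures of 1 genotype. Among the 5478 named genes above background on all WT arrays, the median SD of the 3 WT arrays was 0.08. The WT SD was 0.36 for Ccn1, larger than that of 99.8% of those genes, 0.29 for Ccn2 (99.5%), 0.26 for Yap1 (98.9%) and 0.21 for Ankrd1 (96.5%). Ccn1, Ccn2 and Ankrd1 were all lowest on WT replicate 2, Ccn2 and Ankrd1 were highest on WT replicate 1, and Yap1 was lowest on WT replicate 1. In WT, Ccn3 lay near the middle and Ccn4 below it (56.5% and 30.0% of genes had a smaller SD). KO arrays varied more in general, with a median SD of 0.14 over 5286 genes, and there Ccn1 (0.17) and Ccn2 (0.19) lay near the middle, above 59.7% and 65.9% of genes. Ccn3 had a smaller SD in KO than most genes, with only 6.30% below it. Each SD rests on 3 arrays, and no test of the spread was made.

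**Figure D3:**
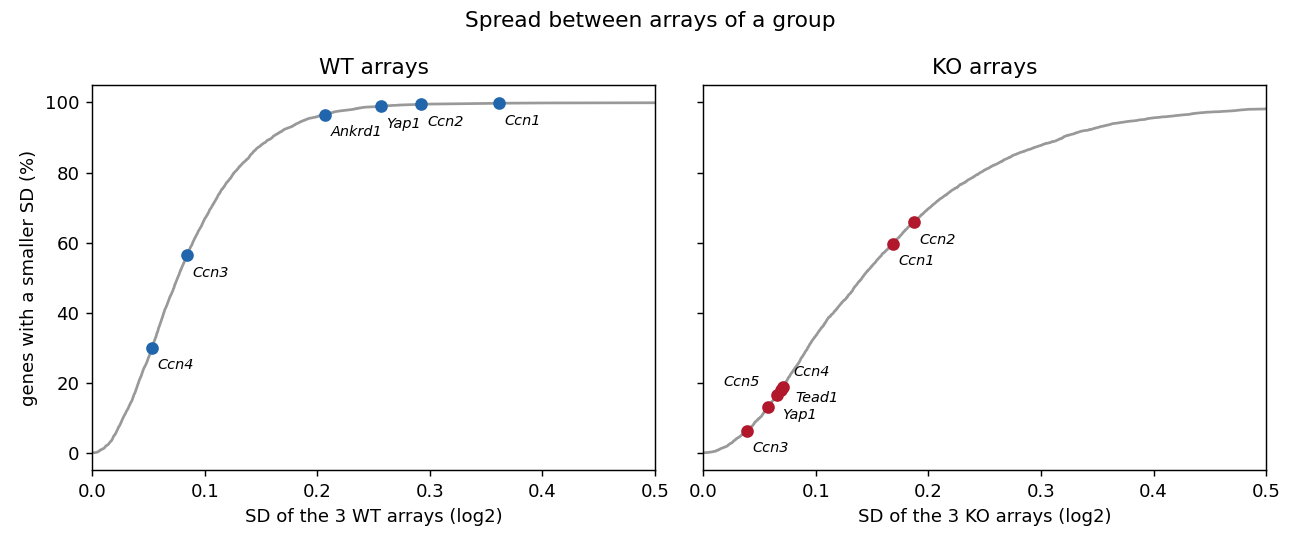
Share of named genes (%, y axis) with an SD of normalized log2 signal between the 3 arrays of a group below the value on the x axis, for WT (left) and KO (right), where the grey line covers genes above background on all arrays of the group and points are the members for which that holds. Ccn1, Ccn2, Yap1 and Ankrd1 lie at the top of the WT curve, and Ccn1 and Ccn2 near the middle of the KO curve.

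How far dim members differed depended on the offset of 50 intensity units added after background correction, which pulls log2 differences of dim spots toward 0. With offset 0 the difference of Ankrd1 was -4.48 and that of Tead1 0.64. With the authors' normalized values they were -5.34 and 0.75, and Ccn5 moved likewise. The brighter members moved less. Over all other settings with the 6 arrays kept, Ccn1 lay between -1.56 and -1.25, Ccn2 between -1.31 and -1.04, and Ccn3 between 1.90 and 2.35. Leaving out 1 array at a time gave -1.64 to -1.32 for Ccn1, -1.39 to -1.10 for Ccn2, 1.90 to 1.98 for Ccn3 and -2.32 to -2.13 for Ankrd1. Ccn4 was at 0.04 under median scaling, with its sign turned.

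**Figure D4:**
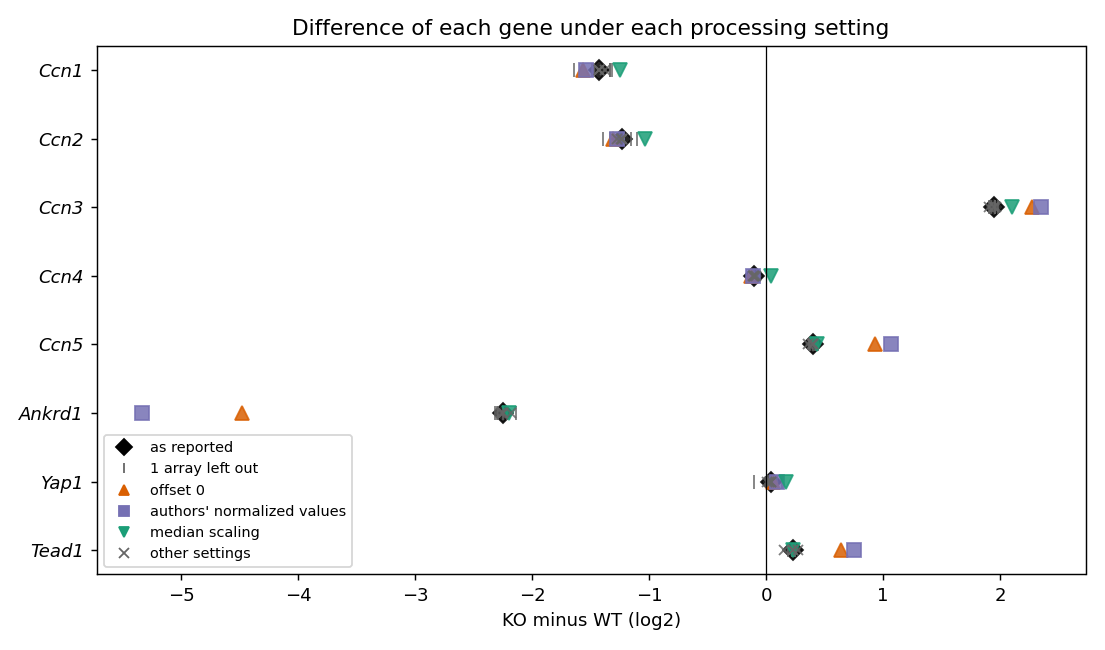
KO minus WT (log2, x axis) of each member under the reported setting (black diamond), with 1 array left out (bars), and under the other processing settings (coloured and crossed markers). Ankrd1 moves from -2.25 to -4.48 with offset 0 and to -5.34 with the authors' normalized values, while Ccn1, Ccn2 and Ccn3 stay on their side of 0 throughout.

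Genes of the Hippo cascade, which restrains YAP1, changed in both directions in KO. Of 25 genes listed for that cascade and its regulators 12 were measured. Lats1 and Lats2, the genes of the LATS kinases, were not among them. Of the 12 measured genes 4 were higher, 2 lower and 6 did not pass, beside 13.1% higher and 13.0% lower over all named genes. The median difference was -0.02, against -0.0048 over all named genes. Stk3, the kinase MST2 at the head of the cascade, was at 8.06 ± 0.26 in KO and 6.93 ± 0.21 in WT (SD, n = 3), 2.19-fold higher (1.13, SE 0.15, limma adjusted p = 0.0010). Its relative Stk4 was at 6.72 in KO and 6.63 in WT (adjusted p = 0.57). Rassf1, a scaffold that binds both kinases, was 1.77-fold higher (0.82, SE 0.14, adjusted p = 0.0040). Both kept their call under all other settings. The other genes called higher were Mob1a, an activator of the LATS kinases (0.35, adjusted p = 0.0095), and Ajuba, a LIM-domain protein that inhibits them (0.28, adjusted p = 0.030). Mob1a lost its call with offset 0 (0.097) and with the authors' values (0.093), and Ajuba in 8 of 13 other settings, among them each array of WT left out. Amotl2, an angiomotin that holds YAP1 at junctions, was 1.53-fold lower (-0.61, SE 0.11, adjusted p = 0.0056) and missed the threshold with the authors' values (-1.08, adjusted p = 0.069). Map4k4, a kinase upstream of the LATS kinases, was 1.29-fold lower (-0.37, adjusted p = 0.0038) and lost its call with offset 0 (0.065), under median scaling (0.19) and with the authors' values (0.12). Sav1, the scaffold of the core kinases, was at 9.74 in KO and 9.95 in WT (adjusted p = 0.20), and Nf2, Taok1 and Amot were near background on every array.

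Among the partners of YAP1 and TEAD1, the median difference was 0.19, against -0.0048 over all named genes. Of 8 listed genes 4 were measured, without Tead3 and Tead4. Of those 4 genes 1 was higher in KO and none was lower, beside 13.1% higher and 13.0% lower over all named genes. That gene was Tead2, a TEAD factor of embryonic cells, at 8.01 ± 0.29 in KO and 7.52 ± 0.07 in WT (0.49, SE 0.13, limma adjusted p = 0.033). Its call was lost with offset 0 (adjusted p = 0.10), with the spot median (0.062), with the authors' values (0.11), without KO replicate 2 (0.072) and without WT replicates 1 (0.12), 2 (0.082) or 3 (0.11). Wwtr1, the gene of TAZ, was at 9.35 in KO and 9.13 in WT, a difference of 0.22 (SE 0.10, adjusted p = 0.20), and passed only without KO replicate 3 (0.0056).

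Other known targets of YAP1 and TAZ were called in both directions. Of 19 listed genes 12 were measured. Of those 12, 4 were lower in KO, 2 higher and 6 did not pass, beside 13.0% lower and 13.1% higher over all named genes. The median difference was -0.03, against -0.0048 over all named genes. This list, drawn from genes used as readouts in human cells, shares Amotl2 with the Hippo list. F3, tissue factor, which starts blood clotting, was lower at 7.12 ± 0.07 in KO against 7.96 ± 0.03 in WT (-0.83, SE 0.06, limma adjusted p = 3.9e-05). Foxf2, a forkhead factor of mesenchyme, was 1.44-fold lower (-0.53, SE 0.06, adjusted p = 6.0e-04). The others called lower were Amotl2, above, and Gadd45a, a stress gene of growth arrest (-0.56, adjusted p = 0.0074), which lost its call with offset 0 (0.059) and with the authors' values (0.082). Arhgef17 was 1.52-fold higher (0.61, SE 0.10, adjusted p = 0.0040). Ccdc80, a matrix protein, was higher by 0.23 (adjusted p = 0.025) and lost its call without KO replicate 1 (0.071) or 2 (0.056), without WT replicate 1 (0.098) or 2 (0.097), with offset 0 (0.17), with the spot median (0.088) and with the authors' values (0.16). Axl, a receptor kinase, differed by -0.05 (adjusted p = 0.72), and Igfbp3, Fjx1 and Tgfb2 were near background on every array.

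Genes of the actin cytoskeleton and of serum response factor (SRF), a factor known to drive Ccn1 and Ccn2 too, were called in 1 direction. Of 23 listed genes 16 were measured, without Mrtfa. Of those 16 genes 6 were higher in KO, none lower and 10 did not pass, beside 13.1% higher and 13.0% lower over all named genes. The median difference was 0.16, against -0.0048 over all named genes. At an unadjusted p under 0.05, limma had 1 lower. That gene was Srf itself, at 7.60 in KO and 7.99 in WT (-0.39, SE 0.14, adjusted p = 0.097), which passed without KO replicate 3 (-0.55, adjusted p = 2.2e-04), as did Tpm2, a tropomyosin (-0.36, adjusted p = 0.0013). Fhl1, a LIM-domain protein of muscle, was at 8.37 ± 0.36 in KO and near background on all WT arrays, at least 4.50-fold higher (adjusted p = 2.4e-05). Cnn1, a calponin of smooth muscle, was at least 3.17-fold higher (adjusted p = 2.8e-07). Fhl2, a related LIM-domain cofactor, was 2.38-fold higher (1.25, SE 0.06, adjusted p = 3.5e-06) and Csrp1, a LIM-domain protein of the cytoskeleton, 2.20-fold (1.14, SE 0.11, adjusted p = 2.3e-04). Vcl, vinculin of focal adhesions (0.92, adjusted p = 2.9e-04), and Acta2, smooth muscle actin (0.55, adjusted p = 6.6e-04), were the others called higher. All 6 kept their call under all other settings. Their direction was opposite to that of Ccn1, Ccn2 and Ankrd1, and whether SRF has a part in any of these differences was not tested.

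Of 20 listed receptors and factors that CCN proteins bind 15 were measured, without Itgb1, Fn1 and Notch1. Of those 15 genes 5 were higher in KO, 3 lower and 7 did not pass. Over all named genes 13.1% were higher and 13.0% lower. The median difference was 0.02, against -0.0048 over all named genes. Bmp4, which CCN2 binds, was at 8.82 ± 0.27 in KO and 6.77 ± 0.06 in WT, 4.12-fold higher (2.04, SE 0.13, limma adjusted p = 2.1e-05). Tgfb1, whose protein induces Ccn2 in fibroblasts, was 2.31-fold higher (1.21, SE 0.08, adjusted p = 2.5e-05). Ccn2 RNA was lower in the same cultures, and a link between them was not tested. Vegfa, an angiogenic factor that CCN2 binds, was 1.51-fold higher (0.59, SE 0.06, adjusted p = 3.6e-04). Itgb2, an integrin chain of leukocytes, was at least 1.39-fold lower and near background on all KO arrays (adjusted p = 6.2e-05). Dcn, the proteoglycan decorin, was lower (-0.33, adjusted p = 0.0028). Among receptors Itgav, an integrin chain that binds several CCN proteins, was above background on 2 of 3 KO arrays and no WT array. It was higher in KO by 0.45 (limma adjusted p = 0.0012), on spots near the limit of detection. Itga5, of the fibronectin receptor, was higher (0.73, adjusted p = 0.021). Its spot on WT replicate 2 was left out, so that call rests on 2 WT arrays. The call was lost without KO replicate 1 (0.052), with offset 0 (0.053) and with the authors' values (0.067). Without WT replicate 1 or 3, which leaves 1 WT array, the difference was 0.67 or 0.80. Itgb5 was lower (-0.30, adjusted p = 0.045) and lost its call in 9 of 13 other settings, among them each WT array left out. Itgb3, Itga6, Itgam and Itga2b were near background on every array.

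**Figure D5:**
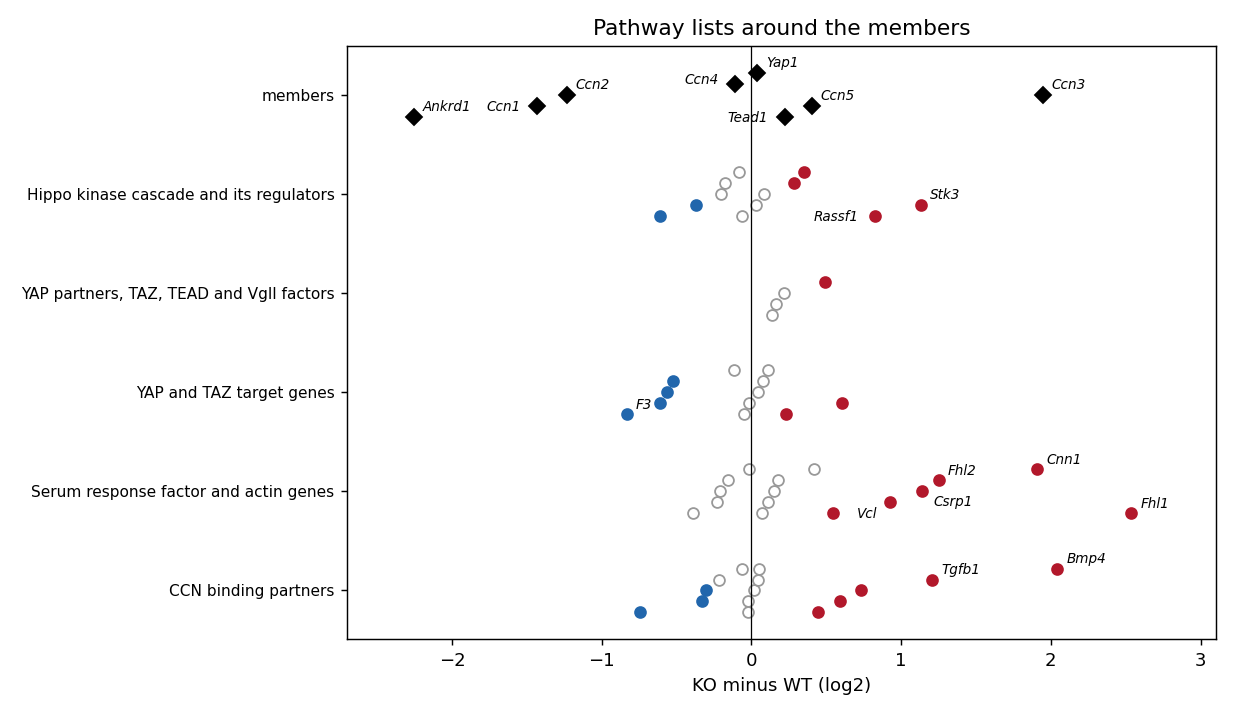
KO minus WT (log2, x axis) of the 8 members (black diamonds, shown as a description) and of the measured genes of each pathway list, with red and blue circles for genes past an adjusted p of 0.05 in limma, higher and lower in KO, and open circles for the rest. The actin and SRF list has 6 genes to the right and none called to the left, whereas 4 targets of YAP1 and TAZ are called lower and 2 higher.

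The member with the largest absolute difference was Ankrd1, and its profile over the 6 arrays was compared with those of 5767 named genes above background on all arrays of at least 1 group, each centred on its own mean. Ankrd1 itself and the genes named next, Hoxc9, Foxd1 and C1ra, met this filter through the WT arrays alone. The smallest root mean square distances in log2 units were those of Hoxc9, a homeobox gene (0.13), Foxd1, a forkhead factor (0.13), and C1ra, a complement protease (0.14). Hoxc9 and Foxd1 were near background on all KO arrays, at least 3.54-fold and at least 4.76-fold lower in KO, and C1ra, above background on 2 of 3 KO arrays, was 4.81-fold lower. The likeness restates the difference between the groups for which Ankrd1 was taken, over 6 arrays, and is a description.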

How the data were processed

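RNA of 3 KO and 3 WT cultures was hybridised to CodeLink mouse arrays, 1 per culture, in Cy5 beside a Cy3 pool of the same genotype, per the labels. Each deposited file holds 1 channel, taken here as that of the culture. Its intensities are those of the authors' scanner: the deposited expression value is spot mean less background median, and the authors' normalized value divides that intensity by 1 constant per array (16.5 to 22.5). The submitters' processing notes name limma. In the deposited value table the columns of KO replicates 2 and 3 are exchanged against the array files, and replicates are numbered here by sample title.

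Here intensities were corrected by normexp (offset 50), put on the log2 scale, quantile normalized over 19801 gene probes and tested with limma 3.58.1 in R 4.3.3 (lmFit, eBayes, Benjamini-Hochberg over 19608 probes, threshold 0.05). Faulty spots, as the scanner software marks them, were omitted, and its own mark decided which spots were above background. The fit was tested on simulated arrays: the known changes were called, but the share of false calls exceeded the threshold. The known changes were set in brighter probes only and were larger than the differences of Ccn5 and Tead1. Dim or small differences were therefore not tried. All simulated arrays had the same noise level, whereas the median SD here was 0.14 in KO and 0.08 in WT. The simulation therefore cannot size the error of these data, and adjusted p-values near the threshold may carry more error than stated. RefSeq accessions without version, and otherwise unambiguous synonyms, gave 10814 probes a name from a GRCm38.p6 gene table (10635 genes), and the brightest probe stood for a gene. The members and lists were chosen with earlier results of these data known. Text names the members, Mapk14, Hras, up to 4 called genes of smallest adjusted p per list, and the 3 genes most like the leading member. Further list genes and markers were named after their values were seen. Alternatives were offset 0, no background correction, the spot median, median scaling, the authors' values, only probes above background on at least 3 arrays, a replicate block, and each array left out.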

Additional observations from a re-analysis of the deposited data

How the results depend on the processing

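The differences of Ccn1, Ccn2, Ccn3, Ccn5, Ankrd1 and Tead1 kept their sign under all 13 alternatives, and those of Ccn4 and Yap1 did not. Ccn1, Ccn2, Ccn3, Ccn5 and Ankrd1 also stayed past the threshold under all 13, and Tead1 under 8. Tead1 missed it without background correction, without KO replicate 2 and with any WT array left out. Like the counts above, these calls of members follow from the choice of the genes, and nothing is read from them. Of 2046 probes higher and 2374 lower in KO, the counts were 1217 and 1044 with the authors' values, 1331 lower with offset 0 and 1345 lower under median scaling, and 1522 to 2664 higher and 1664 to 3151 lower with 1 array left out. In the Hippo list, 2 genes were higher and 1 lower with offset 0, 2 and 0 with the authors' values, and 1 lower under median scaling. Leaving out 1 array gave 3 to 4 higher and 2 lower. In the list of YAP1 partners 0 were higher with offset 0, the spot median or the authors' values, 2 under median scaling, and 0 to 2 with 1 array left out. In the list of YAP1 and TAZ targets 1 was higher with offset 0, the spot median or the authors' values, 2 were lower with the authors' values, and 1 to 2 were higher and 4 lower with 1 array left out. In the actin and SRF list 6 to 8 were higher and 0 to 2 lower with 1 array left out, and in the list of CCN binding partners 4 to 5 and 2 to 4. The cause of these changes was not tested. The labels number the replicates of both groups 1 to 3, but deviations of same-numbered arrays correlated at 0.24, -0.12 and 0.10 across probes, so they were not treated as pairs. With the replicate block the fit called 2029 probes higher and 2312 lower, and 1 gene of the actin and SRF list, Srf, was lower in place of 0 (adjusted p = 0.044). The number of arrays, and for Ankrd1, Ccn5 and Tead1 the signal over background, limit the precision.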
